A study of Mus musculus with 2 samples.

Results

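Matrix metalloproteinases (MMPs), ADAMTS proteases and tissue inhibitors of metalloproteinases (TIMPs) were followed in bone marrow mesenchymal stem/progenitor cells with and without PPARg, the nuclear receptor that directs fat cell formation. The set was a fixed list of 43 genes, 21 of them Mmp, 18 Adamts and 4 Timp genes, chosen by name. All 43 were found among the 25707 loci of the deposited tables. The cells came from the bone marrow of CD-1 mice aged 3 months and were grown in DMEM with fetal bovine serum. RNA sequencing gave 2 libraries, 1 from cells with a floxed Pparg gene (genotype PPAR-flox, called floxed here) and 1 from PPARg-deficient cells (genotype PPAR KO, called deficient). The labels name neither the Cre driver, nor the exons that were floxed, nor the number of animals behind a culture. With 1 library in each group, no difference below has a replicate check, and each describes these libraries alone.

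MMPs are zinc-dependent enzymes that cut collagens and other matrix proteins; most are secreted as inactive proenzymes, and the membrane-type MMPs stay at the cell surface. ADAMTS proteases are secreted relatives that fall into groups by substrate: proteoglycanases that cut aggrecan and versican, procollagen N-proteinases that trim new collagen, and others. TIMPs bind the active site of MMPs and block them, and TIMP3 also blocks ADAMTS4 and ADAMTS5. TIMP2 also helps MMP14 to activate the MMP2 proenzyme. In bone marrow stroma these genes take part in remodelling the matrix around bone-forming, fat and blood-forming cells.

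The tables gave expression as FPKM, fragments scaled by transcript length and library total, which was summed here over the transcripts of a gene. A locus was kept when it reached 1 FPKM in at least 1 library and had a transcript of at least 300 nt, which left 10650 loci. Depth, as coverage times length over all transcripts, was 1383 megabases for the floxed and 1728 megabases for the deficient library. In the deficient library the median kept locus was 1.81-fold higher (0.86 on the log2 scale). Relative log2 folds below are therefore log2 of FPKM plus 1, deficient minus floxed, less that median, and "rose" or "fell" means a relative fold of at least 2. Pparg itself measured 6.86 FPKM (floxed) and 1.39 FPKM (deficient) (relative log2 fold -2.58). Of 11 stromal markers 8 were kept, among them Ly6a at 530 and 841 FPKM and Pdgfrb at 21.8 and 74.0 FPKM. In this list 1 marker rose, Cxcl12 from 60.4 to 318 FPKM (1.52). Another 1 fell, Nt5e from 1.86 to 1.01 FPKM (-1.37), with overlapping bounds. Thy1, Eng and Lepr, which also mark such cells, stayed under 1 FPKM in both libraries.

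Adamts1 and Adamts5 rose, and Mmp2, Mmp13, Mmp16 and Mmp23 fell. Timp1 and Timp3 were by far the most abundant genes of the set in both libraries. Of the 43 genes 14 were kept, 16 were listed at 0 in both libraries, and 13 lay between 0 and 1 FPKM, the highest of these being Adamts12 at 0.68 FPKM. Relative to the median locus 2 of the 14 kept genes rose (14.3%), beside 10.3% of all kept loci, a share close to the background. The 4 genes that fell made up 28.6% of the 14, beside 11.6% of all kept loci. Of these, Mmp13 and Mmp23 passed the filter only through the floxed library, where they were higher. Mmp16 lost its call under most alternatives. The share is therefore not taken as a trait of the set. Without centring, but still with 1 FPKM added, 5 of the 14 were at least 2-fold higher (42.0% of all kept loci) and 3 at least 2-fold lower (4.57% of all kept loci). The genes that joined the higher side without centring were Mmp14, Mmp19 and Timp3, and Mmp16 left the lower side. The median relative log2 fold of the 14 was -0.23, where that of all kept loci is 0 by construction. The filter was met in only 1 library by Adamts6 (deficient) and by Mmp13 and Mmp23 (floxed). Deposited bounds of the major transcript were apart in 12 of the 14 kept genes (72.4% of all kept loci); with that added to the 2-fold rule 2 rose (10.1% of all kept loci) and 3 fell (7.96%).

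**Figure D1:**
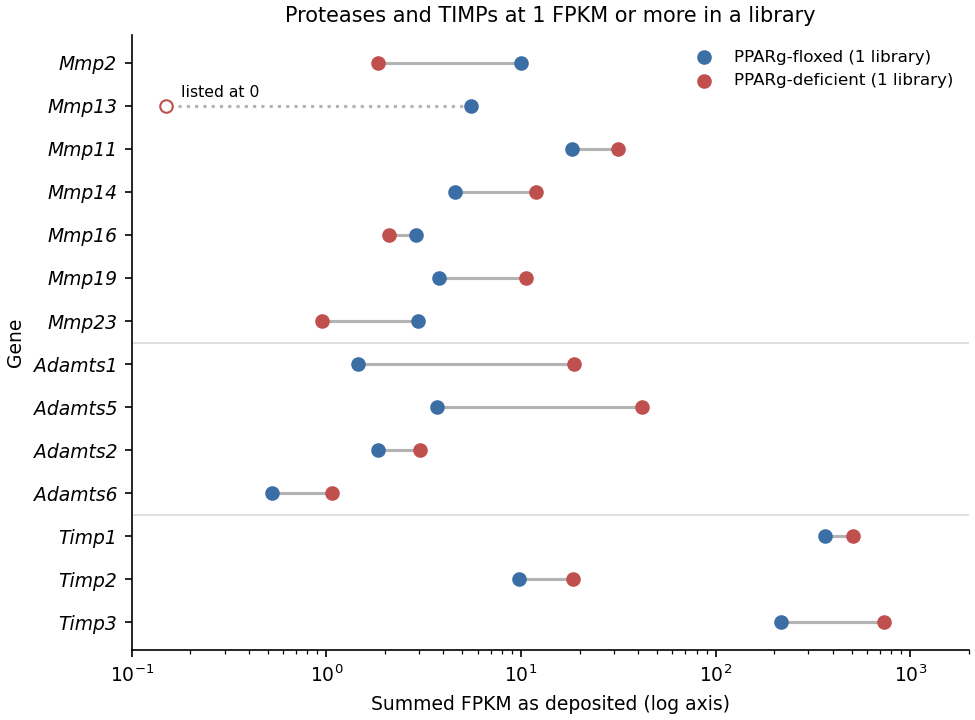
Summed FPKM, on a log axis, of the 14 kept genes in the floxed library (blue) and the deficient library (red), 1 library each; the open point marks Mmp13, listed at 0. Timp1 and Timp3 stand to the right of all others in both libraries, and Adamts1 and Adamts5 show the widest gaps toward the deficient library.

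The proteoglycan-cleaving group held the increases. Adamts5, a main aggrecan-cleaving enzyme of cartilage, had 3.69 FPKM in floxed and 41.8 FPKM in deficient cells, 11.3-fold higher as deposited and a relative log2 fold of 2.33. Adamts1, a secreted protease that cuts versican and aggrecan, was at 1.46 FPKM and 18.8 FPKM, 12.9-fold higher as deposited and a relative log2 fold of 2.15. By relative fold Adamts5 ranked 96 and Adamts1 ranked 131 from the top of the 10650 kept loci. As deposited, without centring, the deficient library was the higher for every transcript of both genes, with bounds apart. The size of the difference varied by form, and under the relative rule used for genes not every form passed 2-fold. The 2-exon form of Adamts1 was at 0.80 and 14.5 FPKM, 77.3% of the deficient sum. Its 9-exon form was at 0.65 and 4.27 FPKM, within 2-fold of the median locus once 1 FPKM is added. In Adamts5 the 7-exon form was at 2.03 and 24.1 FPKM (57.8% of the deficient sum) and the 9-exon form at 0.40 and 10.4 FPKM. Its 8-exon forms were at 1.10 and 3.28 FPKM, within 2-fold of the median locus, and at 0.17 and 3.99 FPKM. Aligned bases, taken as coverage times length, came to 8.35 kilobases for Adamts1 in the floxed library and 95.7 kilobases in the deficient library, so the floxed value rests on few fragments. Together Adamts1 and Adamts5 held 59.3% of all summed Adamts FPKM in the floxed and 91.9% in the deficient library.

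The other 5 genes of the proteoglycan-cleaving group were not kept. Adamts4, the other well-known aggrecanase, was at 0.35 and 0.28 FPKM. Adamts8, Adamts9, Adamts15 and Adamts20 were listed at 0 in both libraries. The increase was thus seen in 2 genes of the 7, and those 2 are neighbours in the genome.

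Adamts1 lies on chromosome 16 from 85794072 to 85803360 and Adamts5 from 85858343 to 85902211, both on the minus strand (mm9, as in the files). A gap of 54982 bases separates them and holds 4930556C24Rik, listed at 0 in both libraries. Of the flanking genes, Cyyr1 was at 0 in both, App was at 7.93 and 15.9 FPKM (relative log2 fold 0.06) and Gabpa at 4.34 and 8.79 FPKM (0.02). On the other side N6amt1 rose from 2.84 to 15.2 FPKM (1.22), while Ltn1 was at 2.15 and 6.39 FPKM (0.37). Mrpl39, the farthest named gene plotted on the App side, rose from 1.61 to 17.7 FPKM (1.98). The nearest named and kept flanking genes were thus lower in relative fold than the 2 Adamts genes, and the wider region held other genes that rose. An unnamed spliced locus of 626 nt between App and Adamts1 went the other way, from 752 to 354 FPKM (-1.94).

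The RefSeq table (GRCm38.p6) held the start of Adamts1. Its 250 upstream bases, chr16:85803114-85803363 on the minus strand in that build, are shown because Adamts1 is the risen gene with an entry. Capitals mark the GC box (GGGCGG, both strands searched) and the TATA letters (TATAAA, both strands):
Adamts1: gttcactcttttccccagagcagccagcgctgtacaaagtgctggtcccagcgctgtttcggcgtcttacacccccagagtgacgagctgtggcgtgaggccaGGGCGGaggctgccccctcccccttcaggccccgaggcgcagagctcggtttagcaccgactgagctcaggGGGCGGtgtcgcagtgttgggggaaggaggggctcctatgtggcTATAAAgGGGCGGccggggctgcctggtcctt

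The window held 3 GC boxes and TATAAA at -32 to -27, counted from -1 at the last base before the start. Of 32851 promoter windows of this length 32.7% held a GC box and 12.4% the TATA letters. In the files the 9-exon form of Adamts1 begins at 85803360 (mm9). The 2-exon form, with 77.3% of the deficient Adamts1 FPKM, begins inside the gene at 85797464. The window printed at the gene start is therefore not directly upstream of the start listed for the 2-exon form. The split of FPKM between the 2 forms is an estimate, and where transcription began was not measured.

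The remaining Adamts genes were low. Adamts2, a procollagen N-proteinase that removes the amino-terminal propeptide of fibrillar collagens, was at 1.85 and 3.03 FPKM, a relative log2 fold of -0.36. Adamts3 and Adamts14, of the same group, stayed at or under 0.15 FPKM. Adamts6 was at 0.53 and 1.07 FPKM (-0.42), and its sum came from different transcripts in the 2 libraries that differ by a few bases in length. Adamts7 was listed at 0 in both libraries and Adamts12, which like it cuts cartilage oligomeric matrix protein, was at 0.41 and 0.68 FPKM. Adamts10, Adamts16, Adamts17, Adamts18 and Adamts19 lay between 0 and 0.14 FPKM.

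**Figure D2:**
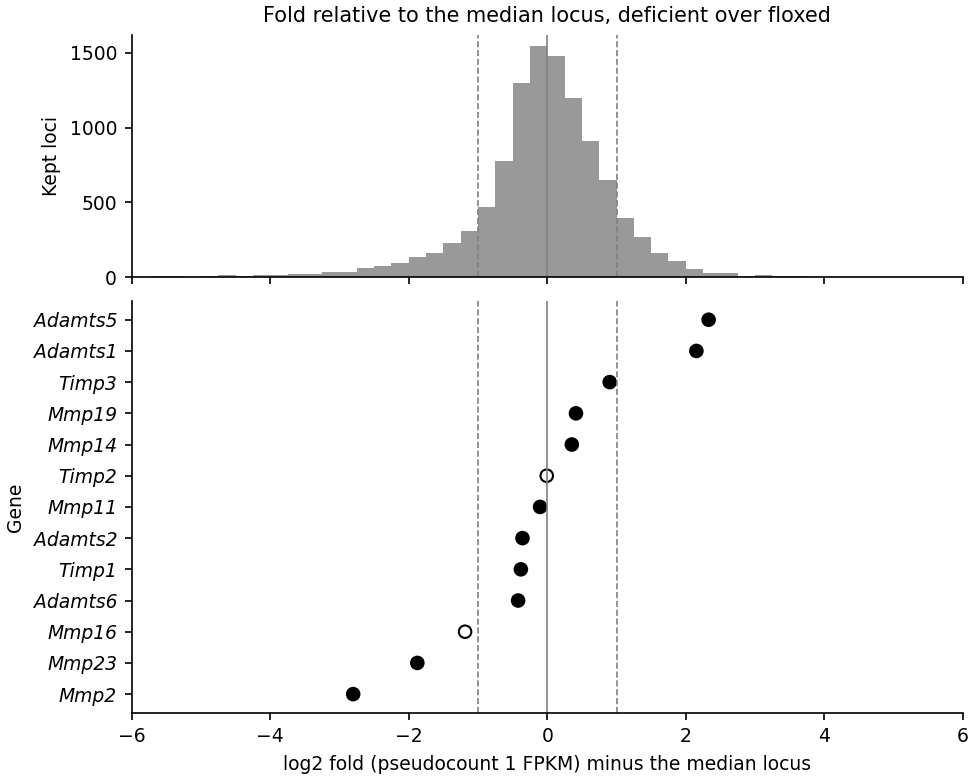
Top, histogram of relative log2 folds of all kept loci; 19 loci beyond 6 in either direction are not drawn. Bottom, the 13 kept genes with a value above 0 in both libraries, filled where the deposited bounds of the major transcript were apart; dashed lines mark 2-fold, which Adamts1 and Adamts5 pass on the right and Mmp2, Mmp16 and Mmp23 on the left.

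Among secreted MMPs the gelatinase and the collagenase of the set fell. Mmp2, which encodes gelatinase A, had 9.97 FPKM in floxed and 1.85 FPKM in deficient cells, 5.38-fold lower as deposited and a relative log2 fold of -2.80. Its main transcript of 13 exons and 2634 nt was at 9.70 FPKM (deposited bounds 7.86 to 11.5) and 1.32 FPKM (0.75 to 1.90). The second transcript, of 3041 nt, was at 0.27 and 0.53 FPKM with bounds that overlap. Mmp2 held 20.6% of summed Mmp FPKM in floxed and 3.13% in deficient cells. An unnamed locus of 776 nt on the opposite strand lies wholly on Mmp2 exons and had 12.03 and 4.28 FPKM. How strand was used in counting is not given in the sources used here, so reads of the 2 cannot be told apart. Mmp9, which encodes the other gelatinase, was listed at 0 in both libraries.

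Mmp13, which encodes the main interstitial collagenase of mice, had 5.54 FPKM in floxed cells (bounds of its transcript 4.54 to 6.53), whereas the deficient library lists it at 0. No fold is given against a value listed at 0. The floxed value rested on 24.7 kilobases of aligned sequence, and at the same FPKM the deeper deficient library would have held about 30.8 kilobases. The deposited bounds of the 0 are themselves 0, as they are for all 21 members listed at 0 in that library, so they give no upper limit. Mmp13 is 1 of 15 kept loci listed at 0 in the deficient library with at least 5 FPKM in the floxed library (18 the other way), and a 0 can be a failed estimate. Mmp8, the neutrophil collagenase gene, was at 0 in both libraries.

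Mmp13 lies at one end of a cluster on chromosome 9, from 7272514 to 7699416 (mm9), which spans 427 kilobases and holds 8 of the 43 genes. Mmp3, which encodes stromelysin-1, had 0.35 FPKM and Mmp27 had 0.15 FPKM in floxed cells, and the deficient library lists both at 0. Mmp12, Mmp10, Mmp8, Mmp20 and Mmp7 were at 0 in both. At the levels of Mmp3 and Mmp27 a difference between the libraries was not detectable, so Mmp13 is the 1 gene of the cluster with a clear signal. The genes next to the cluster were expressed in both libraries, Dcun1d5 at 71.9 and 52.0 FPKM and Birc2 at 4.66 and 9.07 FPKM.

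Most promoters of this cluster hold a sequence that the choice of genes did not use. AP-1, a dimer of Fos and Jun proteins, is a known activator of stromelysin and collagenase genes and binds TGANTCA (searched on both strands, which for these letters find the same places). Of 29 members with a RefSeq entry 6 held it within 250 upstream bases (20.7%), beside 6.75% of 32851 windows. The first share counts a gene when any of its entries held the letters, and the second counts each window apart. All 6 lie in the cluster, and 0 of the 21 members with an entry elsewhere held it. The 6 are shown with 15 bases on each side and the AP-1 letters in capitals (GRCm38.p6, plus strand):
Mmp13, chr9:7272464-7272500: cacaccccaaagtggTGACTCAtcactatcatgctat
Mmp12, chr9:7347315-7347351: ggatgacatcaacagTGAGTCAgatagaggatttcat
Mmp3, chr9:7445761-7445797: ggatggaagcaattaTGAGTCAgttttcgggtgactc
Mmp10, chr9:7502264-7502300: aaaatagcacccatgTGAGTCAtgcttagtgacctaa
Mmp20, chr9:7628121-7628157: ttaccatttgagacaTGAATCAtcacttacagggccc
Mmp7, chr9:7692012-7692048: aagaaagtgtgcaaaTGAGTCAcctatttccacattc

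The AP-1 letters began at -35 in Mmp13, -44 in Mmp12, -46 in Mmp3, -63 in Mmp10 and Mmp7, and -95 in Mmp20. Mmp8 and Mmp27 did not hold these letters in this window, nor did the other RefSeq entry of Mmp12 and of Mmp7. Of the genes that encode AP-1 proteins, Fos rose from 2.10 to 16.2 FPKM (relative log2 fold 1.61) and Fosl1 was at 0.14 and 3.45 FPKM (1.11), while Jun, Junb and Jund were not matched. Runx2, which encodes a skeletal transcription factor known to act on Mmp13, fell relative to the median locus, from 6.96 to 4.87 FPKM (-1.30), with overlapping bounds. A match is a description of letters, and binding was not measured.

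**Figure D3:**
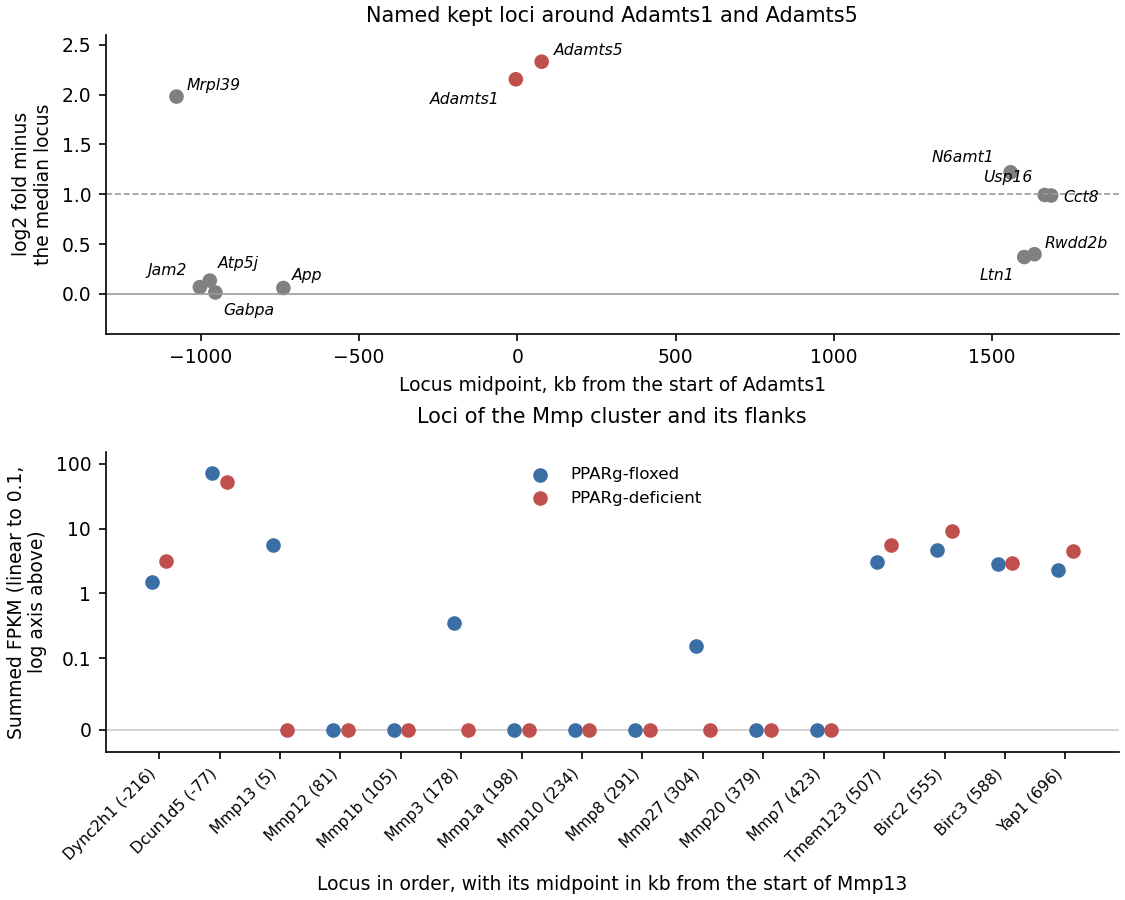
Top, relative log2 fold of named kept loci by distance from the start of Adamts1, with the 2 Adamts genes in red above the other genes plotted. Bottom, FPKM of the genes of the Mmp cluster and its flanks in order, linear to 0.1 FPKM and on a log axis above; inside the cluster only Mmp13, Mmp3 and Mmp27 have a value above 0, in the floxed library.

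Mmp11, which encodes stromelysin-3, a stromal enzyme activated inside the cell by furin, was the most abundant Mmp gene in both libraries. It was at 18.2 FPKM in the floxed and 31.5 FPKM in the deficient library, a relative log2 fold of -0.10, and so followed the median locus. It held 37.6% of summed Mmp FPKM in the floxed library and 53.1% in the deficient library.

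Of the membrane-type MMP genes 2 of 6 were kept, and they differed in direction. Mmp14, which encodes the collagen-cutting activator of the MMP2 proenzyme, was at 4.60 and 11.99 FPKM, a relative log2 fold of 0.35 and 2.61-fold higher as deposited. Its 10-exon transcripts were higher in the deficient library, at 2.28 and 7.79 FPKM for the transcript of 2597 nt, while its 8-exon transcript was lower, at 0.97 FPKM (0.56 to 1.37) and 0.30 FPKM (0.06 to 0.54). The proteins of Mmp14, Timp2 and Mmp2 work together at the cell surface; of these genes Mmp14 and Timp2 stayed within 2-fold of the median locus and Mmp2 fell.

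Mmp16, which encodes another membrane-type enzyme, was at 2.88 and 2.09 FPKM (-1.19). As deposited, its transcripts exchanged places in rank, although the bounds of the 10-exon form overlapped between the libraries. The 11-exon transcript was at 1.83 FPKM (1.34 to 2.32) in the floxed and 0.26 FPKM (0.05 to 0.47) in the deficient library, and the 10-exon transcript was at 1.05 FPKM (0.63 to 1.47) and 1.83 FPKM (1.38 to 2.28). The 11-exon form thus held 63.5% of Mmp16 FPKM in the floxed and 12.4% in the deficient library. The fall of Mmp16 is within 2-fold as deposited (-0.33), and its call is lost under most alternatives, among them the requirement that bounds be apart. Mmp15, Mmp17, Mmp24 and Mmp25 were at or under 0.098 FPKM.

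Mmp23, which encodes a small membrane-anchored enzyme, was at 2.96 FPKM (bounds 1.93 to 3.99) and 0.96 FPKM (0.38 to 1.53), 3.10-fold lower as deposited and a relative log2 fold of -1.88. Its call rests on 5.24 and 2.10 kilobases of aligned sequence and is lost with a pseudocount of 5 FPKM. Mmp19, a secreted enzyme gene, was at 3.80 and 10.6 FPKM (0.41), and its transcripts changed as well. The form listed as beginning at 128227850 had 1.68 FPKM (1.08 to 2.27) in floxed and 0.03 FPKM (0 to 0.11) in deficient cells. The form beginning at 128227966 had an upper bound of 0.07 FPKM in floxed cells and 3.46 FPKM (2.54 to 4.37) in deficient cells. Mmp19 shares 2496 exonic bases with Tmem198b on the opposite strand, which was at 9.73 and 23.9 FPKM. The values of Mmp19 and of its forms are therefore uncertain without strand, and use of single starts was not measured. Mmp21 and Mmp28 were at or under 0.13 FPKM.

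**Figure D4:**
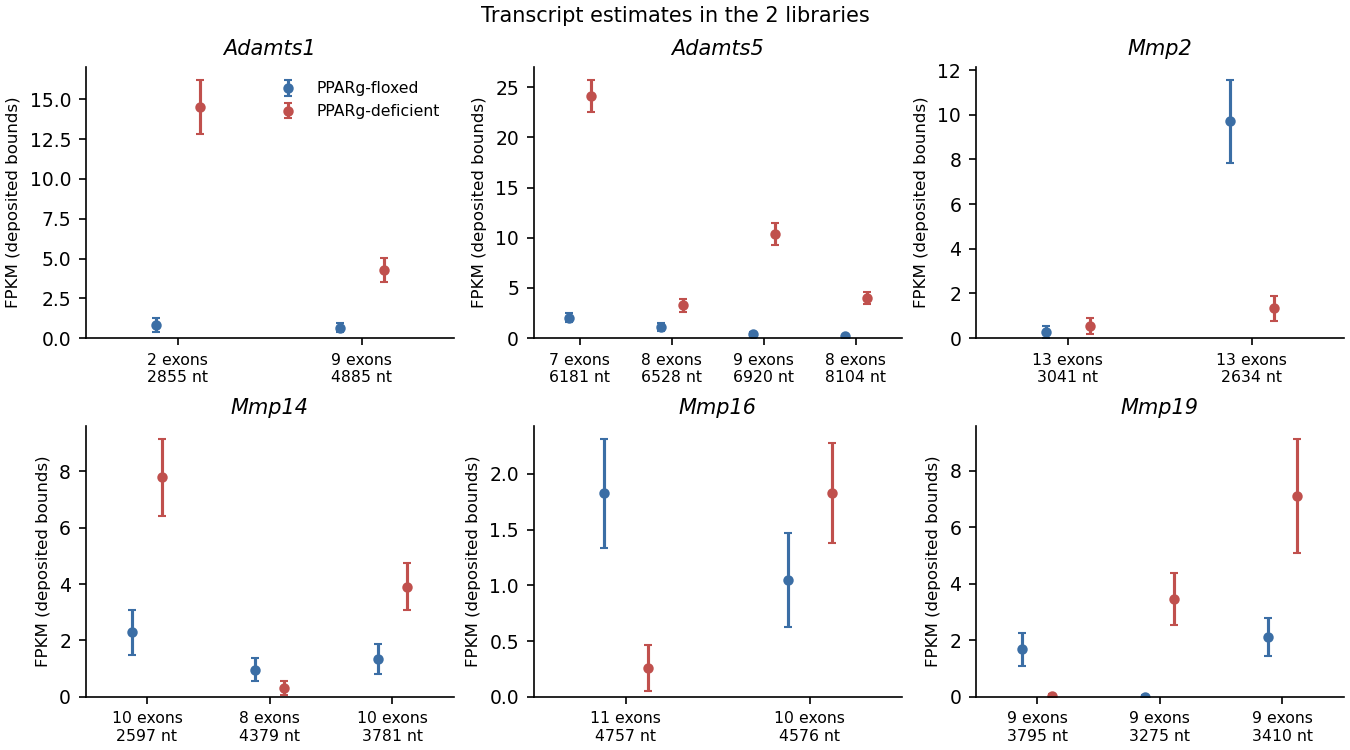
FPKM of each transcript of 6 genes in the floxed (blue) and deficient (red) libraries; bars are the deposited lower and upper bounds within 1 library, not a spread between cultures. As deposited, without centring, all transcripts of Adamts1 and Adamts5 are higher in the deficient library. In Mmp14, Mmp16 and Mmp19 different transcripts go in opposite directions as deposited, with overlapping bounds for the 10-exon form of Mmp16.

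Of the inhibitor genes Timp1 and Timp3 were the 2 most abundant of the set, while Timp2 lay below Mmp11 in both libraries. Timp1, a widely secreted inhibitor, was at 366 and 510 FPKM, at percentile 97.6 and 97.7 of kept loci, a relative log2 fold of -0.38. Timp3, an inhibitor that binds to the matrix and also blocks ADAMTS4 and ADAMTS5, was at 217 and 737 FPKM, 3.40-fold higher as deposited and a relative log2 fold of 0.90, just under the 2-fold limit. The order of the 2 thus turned: Timp3 over Timp1 was 0.59 in the floxed and 1.45 in the deficient library. This ratio does not depend on how the libraries are scaled.

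Timp2 was at 9.83 and 18.5 FPKM (-0.0074) and followed the median locus. The form beginning at 118215943 had 9.82 and 9.67 FPKM with overlapping bounds. The difference came from forms beginning at 118200934 and 118216933, which had upper bounds of 0.07 FPKM in floxed cells and reached 4.36 and 4.25 FPKM in deficient cells. An unnamed locus on the opposite strand shares 2784 exonic bases with Timp2 and was at 15.5 and 21.7 FPKM. The values of Timp2 and of its forms are therefore uncertain without strand. Timp4 was listed at 0 in both libraries. Timp1, Timp3 and Timp4 each lie within the span of a synapsin gene on the opposite strand (Syn1, Syn3 and Syn2), but share no exonic base with it, and the synapsin genes stayed at or under 0.07 FPKM.

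Summed by family, Timp genes were at 593 and 1265 FPKM, Mmp genes at 48.5 and 59.2 FPKM and Adamts genes at 8.68 and 65.9 FPKM. Timp over Mmp was 12.2 in the floxed and 21.4 in the deficient library, while Timp over Mmp plus Adamts was 10.4 and 10.1. The families therefore shifted against each other, with the Adamts sum carried by Adamts1 and Adamts5. These sums describe RNA per length and give no protein amount or enzyme activity.

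Other genes of matrix proteolysis are given from 6 lists. Of 11 membrane ADAM genes 5 were kept, 0 rose and 1 fell, Adam22 at 1.32 and 0.11 FPKM; Adam17, a sheddase gene, was at 3.75 and 11.3 FPKM (0.52), Adam9 at 7.91 and 17.6 FPKM (0.20) and Adam10 at 3.75 and 6.79 FPKM (-0.14). Of 7 ADAMTS-like and papilin genes 2 were kept and neither moved by 2-fold, Adamtsl3 at 16.4 and 27.1 FPKM (-0.17) and Adamtsl5 at 6.08 and 6.91 FPKM (-0.70). Of 7 astacin protease and enhancer genes 3 were kept, 0 rose and 1 fell, Pcolce2 at 3.64 and 2.79 FPKM (-1.15). In that list Bmp1, which encodes the procollagen C-proteinase, was at 1.32 and 7.23 FPKM (0.97), and Pcolce, which encodes its enhancer, at 318 and 572 FPKM (-0.015).

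Of 14 genes for activation, inhibition and clearance of these enzymes 5 were kept, 1 rose and 0 fell. Bsg, which encodes basigin, a surface protein known as an inducer of MMPs, rose from 16.6 to 93.7 FPKM (1.57). Lrp1, which encodes an endocytic receptor that clears MMPs, ADAMTS5 and TIMPs, was at 2.002 and 8.71 FPKM (0.84), and Cd44, a hyaluronan receptor gene, at 26.5 and 49.6 FPKM (0.02). Of 18 substrate genes 12 were kept, 1 rose and 2 fell. Fbn1, the fibrillin-1 gene, rose from 7.17 to 29.8 FPKM (1.06). Fn1, the fibronectin gene, was at 160 and 153 FPKM (-0.93), and the collagen genes Col1a1 at 173 and 191 FPKM (-0.72) and Col5a1 at 2.71 and 9.67 FPKM (0.66). The proteoglycan genes Dcn (2.82 to 0.07 FPKM, -2.70) and Lum (4.13 FPKM, listed at 0 in the deficient library) fell. Bgn, a proteoglycan gene and the most abundant of the list, stayed within 2-fold at 1763 and 2180 FPKM (-0.55). The proteoglycan substrates of Adamts1 and Adamts5 were Vcan at 3.10 and 7.69 FPKM (0.23) and Acan, listed at 0 in both. Of 10 matched AP-1, ETS and RUNX genes 7 were kept, with Fos and Fosl1 higher and Runx2 lower. Adam22, Pcolce2, Dcn, Lum, Bgn, Vcan, Acan and Fosl1 were named after their values were seen.

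Other cell types make several of these enzymes, and in a bulk sample fewer cells of a type and less RNA per cell cannot be told apart. Of 7 matched macrophage markers 2 were kept, Cd68 (1.56 and 2.10 FPKM) along with Cd14 (4.52 and 12.5 FPKM). Their list summed to 6.11 and 14.9 FPKM, with Ptprc, Adgre1 and Itgam at 0 in both libraries, as was Mmp12, the macrophage elastase gene. Neutrophil markers summed to 6.41 and 6.87 FPKM, nearly all from Camp, with 5 of 7 at 0 in both, as were Mmp8 and Mmp9. Osteoclast markers summed to 48.8 and 150 FPKM, of which Ctsk was 44.0 and 150 FPKM, while Acp5 fell from 4.73 to 0.65 FPKM (-2.65) and Calcr, Dcstamp and Ocstamp were at 0. Endothelial markers summed to 0.02 and 0.26 FPKM. Of 6 chondrocyte markers 1 was kept, Sox9 at 4.25 and 2.76 FPKM, and adipocyte markers summed to 204 and 15.6 FPKM. Of the adipocyte sums Lpl was 176 and 2.78 FPKM, Adipoq 9.87 and 0.10 FPKM, and Fabp4 17.6 and 12.7 FPKM with overlapping bounds. Plin1 and Lep were at 0 in both libraries, and Cidec was at 0.07 FPKM in floxed cells and 0 in deficient cells. The chondrocyte sum (4.32 and 2.80 FPKM in all) was lower in the deficient library and came nearly all from Sox9. The adipocyte sum was lower as well, mostly through Lpl. All the other marker sums, the stromal sum included (1054 and 1748 FPKM), were higher in the deficient library as deposited. The median locus was itself 1.81-fold higher there. The osteoclast sum was higher through Ctsk alone and the macrophage sum mostly through Cd14. Of the osteoclast and macrophage markers 0 rose by 2-fold relative to the median locus. The part of these cell types in the results was not tested.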

How the data were processed

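The deposited files list 45543 transcripts under assembly IDs with FPKM, its lower and upper bounds and coverage, as Cufflinks writes them per the file headers. Per the submitters' processing notes, which state no roles, TopHat2 2.0.5, Cufflinks 2.0.2, Cuffdiff 2.0.2 and mm9 were used. The annotation, filtering and strandedness were not given in the sources used here. Loci were named by matching ordered intron and internal exon lengths, on the same chromosome and strand, to GENCODE M21, a later build, with no coordinate converted: 19049 of 25707 loci got 18996 symbols, and all 43 members matched a whole chain of at least 2 introns. FPKM is relative to each library's total. The fold used a pseudocount of 1 FPKM, which understates low genes, and a call means 2-fold by size. No test, error or p-value exists, since each group is 1 library. Read counts were not given, so depth per gene is known only as coverage. Every kept member was named, and from each of 6 related lists up to 4 kept genes of at least 5 FPKM. Members and lists were chosen with earlier results of these data known. Promoters came from RefSeq (GRCm38.p6), where 29 of 43 members had an entry; 12234 of 32851 entries continued into a GENCODE transcript start on the given strand and 23 on the other. Centring on the median locus and the 2-fold call were tested on simulated data with base levels of at least 5 FPKM. Lower levels, naming and the promoter search were not simulated. Alternatives were pseudocounts of 0.1 and 5 FPKM, filters, scalings, the most abundant transcript, stricter naming and other call limits. Python 3.11.15, numpy 2.4.6, pandas 2.3.3 and matplotlib 3.10.9 were used.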

Additional observations from a re-analysis of the deposited data

How the results depend on the processing

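Higher and lower members numbered 2 and 4, with a median of -0.23. With a pseudocount of 5 FPKM 2 were lower and the median was 0.13. With a filter of 5 FPKM, which kept 10 members, 2 were lower, as at 4-fold. With no filter on FPKM 5 were higher, as with TPM (median 0.58) and as deposited (median 0.63); the first takes off a median shift of 0.05 and the others none. The other alternatives kept both counts within 1.5 times and the median within 0.2. No called member changed sign. Adamts1, Adamts5, Mmp2 and Mmp13 stayed past 2-fold in every alternative run. Mmp16 lost its call with a pseudocount of 5 FPKM, no filter, as deposited, upper-quartile scaling, TPM, the most abundant transcript and bounds apart, Mmp23 with a pseudocount of 5 FPKM; both also dropped out at 4-fold and under the filter of 5 FPKM. Timp3 passed 2-fold with a pseudocount of 5 FPKM, no filter, as deposited and TPM, Mmp14 and Mmp19 with the last 3. Causes were not tested beyond the settings' construction. No paired analysis was possible because each group has 1 library, and for the same reason no library could be left out. Values under 1 FPKM rest on few fragments, so differences among the 29 low members were not detectable at this depth.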
